A study of Mus musculus with 33 samples.

Results

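The netrin and slit guidance system was followed through 10 genes, the ligands Ntn1, Slit1, Slit2 and Slit3 and the receptors Dcc, Unc5b, Unc5c, Robo1, Robo2 and Robo3, out of 37991 genes counted in each of 33 libraries. They were taken by family, and the family was chosen by its Unc5c values, which had one of the steepest falls in Neil1 EBs. The Neil1 EB comparison is therefore given as values with no test for any member. Unc5c is given without a test wherever the control EBs enter, and without an FDR in EBs + RA. The Neil1 interaction with RA contains that EB comparison, so its FDRs are not independent of the choice. All 10 genes had 1 identifier each in the files, and none shared exon sequence with another annotated gene.

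Guidance ligands tell growing axons and migrating cells where to go. Netrins such as Ntn1 are secreted, often by floor plate and ventricular cells, and attract cells that carry Dcc, whereas receptors of the UNC5 family turn the response into repulsion. Slits are large secreted proteins that repel cells carrying ROBO receptors, and Robo3 is the divergent member that commissural neurons use to reach and cross the midline. The same molecules are used outside the nervous system by neural crest, vessels, muscle and mesenchyme.

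The libraries were made from mouse embryonic stem cells of the line E14TG2a at 3 stages: mESCs, embryoid bodies (EBs) collected on day 8, and EBs that received 5 µM retinoic acid (RA) from day 4 on (EBs + RA). Control, Neil1-deficient and Neil2-deficient lines had 3 clones each. The control lines were #1, #4 and #7, the Neil1 lines #7, #9 and #11, and the Neil2 lines #1, #11 and #14. NEIL1 and NEIL2 are DNA glycosylases of base excision repair. APEX1, the endonuclease that acts after them, was removed in 1 clone, #46, with technical duplicates at each stage, so Apex1 values have no replicate check. All mutations were CRISPR/Cas9 deletions of part of the gene. The clones were separate lines of 1 parental line, and p-values measure the spread between clones. EBs hold mixed cell types, and in such bulk samples fewer cells of a type and less RNA per cell cannot be told apart.

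Libraries held 21523742 to 48350904 counts on genes, with a median of 26720028. Whole-gene counts could not check the genotypes, since each deletion leaves the rest of the gene. As plain CPM, without further scaling, Neil1 had 5.71 to 10.0 in controls and 1.26 to 29.6 in Neil1 libraries, Neil2 had 3.55 to 15.4 in controls and 5.27 to 18.2 in Neil2 libraries, and Apex1 had 7.7 to 16.7 in controls and 56.9 to 79.8 in Apex1 libraries. The stages were told apart by the pluripotency markers Pou5f1, Nanog, Zfp42, Esrrb and Tdgf1, whose summed level in controls lay between 4400 and 4773 CPM in mESCs, between 1570 and 1711 CPM in EBs and between 51.1 and 79.1 CPM after RA. All other CPM values follow TMM scaling of the libraries.

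Promoter windows of RefSeq on GRCm38.p6, a later build than the NCBIM37 of the counts, were found for 7 of the 10 members, with 3 windows for Robo2 and none for Dcc, Ntn1 and Slit1. Each window was read over the 250 bases before the annotated start. The windows of Unc5c, Slit2 and Robo3 are shown because these 3 genes had the largest falls of the 10 in Neil1 EBs + RA. Capitals mark a GC box (GGGCGG on either strand) or a TATA box (TATAAA on either strand).
Unc5c, chr3:141465314-141465563, plus strand: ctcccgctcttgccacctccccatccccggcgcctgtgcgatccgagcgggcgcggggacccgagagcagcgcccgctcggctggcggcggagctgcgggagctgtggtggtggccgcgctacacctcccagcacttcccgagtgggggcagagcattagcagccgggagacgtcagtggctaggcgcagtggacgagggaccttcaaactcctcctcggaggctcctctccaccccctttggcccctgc
Slit2, chr5:47982905-47983154, plus strand: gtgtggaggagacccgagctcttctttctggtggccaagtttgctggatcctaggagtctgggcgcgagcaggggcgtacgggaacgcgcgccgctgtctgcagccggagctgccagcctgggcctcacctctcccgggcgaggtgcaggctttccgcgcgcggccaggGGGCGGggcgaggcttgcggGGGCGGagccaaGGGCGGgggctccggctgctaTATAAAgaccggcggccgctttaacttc
Robo3, chr9:37433176-37433425, minus strand: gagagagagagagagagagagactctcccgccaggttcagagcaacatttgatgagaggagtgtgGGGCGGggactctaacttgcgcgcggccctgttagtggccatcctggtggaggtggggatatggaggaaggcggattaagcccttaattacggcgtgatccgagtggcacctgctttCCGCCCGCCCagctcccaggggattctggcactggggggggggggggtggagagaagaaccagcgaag

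The Slit2 window held 3 GC boxes, 81, 61 and 49 bases before the start, and a TATA box 28 bases before it. The Robo3 window held 3 GC boxes, 2 of them overlapping, and the Unc5c window held neither motif. GC boxes were in 4 of the 9 member windows and in 32.7% of all 32851 windows of this length, and TATA boxes in 1 of 9 and in 12.4%. The core site AGGTCA, which retinoic acid receptors bind, was looked for on both strands. It was in 0 of the 9 member windows and in 14.0% of all windows. With 2 such sites in the same orientation and 2 or 5 bases between them, 3 windows of the genome matched at each spacing, none of them a member's. These letters say nothing of more distant elements. The member windows were 44.8% to 78.8% GC, against a median of 52.4% over all windows.

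In control clones the 10 genes differed in level and in course. Per length, Unc5b had the highest level of the 10 in EBs, at 29.7 to 33.7 RPKM (CPM divided by exon length in kilobases). Its level in mESCs was 4.84 to 5.98 RPKM, beside Ntn1 at 5.71 to 7.88 and Robo1 at 4.58 to 6.21, and these 3 ranges touched or overlapped. Dcc, at 0.109 to 0.392 RPKM over all 9 control libraries, and Slit1, at 0.186 to 0.576, stayed low at every stage, and their ranges overlapped.

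**Figure D1:**
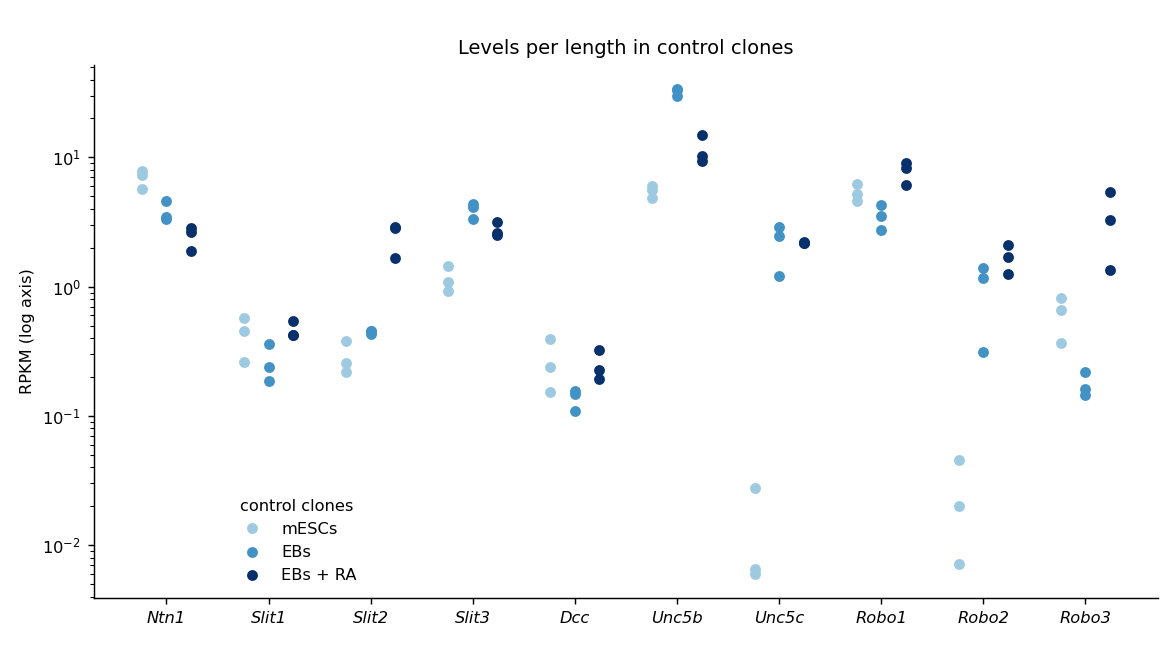
Level per length of the 10 members in the 9 control libraries, as RPKM on a log axis, with 1 point per clone and a shade of blue per stage. Unc5c and Robo2 lie below 0.05 RPKM in mESCs and above 0.3 RPKM in EBs, Slit2 and Robo3 are highest in EBs + RA, and Dcc and Slit1 stay below 0.6 RPKM throughout.

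From mESCs to EBs of the control clones, 8 of the 9 members other than Unc5c passed the edgeR test, which asked for an FDR under 0.1 and a log2 fold change beyond 0.5 either way, 4 higher and 4 lower in EBs, where 18.5% of the 15799 genes tested were higher and 20.2% lower. Robo2 had 0.329, 0.750 and 0.119 CPM in mESCs of control #1, #4 and #7, and 22.9, 19.3 and 5.11 CPM in their EBs. With 9, 20 and 3 counts in mESCs, it passed the count filter through the EBs. It is among the 4 counted as higher. The fitted rise was 5.24 ± 0.68 (log2 ± standard error), which rests on those few mESC counts and is given without an FDR. Unc5b rose by 2.52 ± 0.12 (edgeR FDR 2.5e-06) and Slit3 by 1.75 ± 0.20 (edgeR FDR 2.0e-04). Ntn1 fell by 0.90 ± 0.16 (edgeR FDR 0.00247) and Robo3 by 1.84 ± 0.35 (edgeR FDR 0.00307). Robo1 changed by −0.64 on the log2 scale, and by −0.36 without control #7, which did not reach the limit. Slit2 (0.61, edgeR FDR 0.0736) and Dcc (−0.96, edgeR FDR 0.0730) were past the limits, but with the clone as a block their FDRs were 0.110 and 0.158, while Slit1 (−0.74) then had 0.0929. Without control #4 the 2 FDRs were 0.381 and 0.213. Without control #7 the Dcc FDR was 0.300 and the Slit2 change was 0.44. Unc5c, the gene behind the choice, had 2, 9 and 2 counts in control mESCs and 1642, 766 and 397 counts in control EBs.

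RA then moved 7 of these 9 members in control clones, 5 upward and 2 downward, where 23.3% of 15919 genes rose and 20.7% fell. Robo3 had 1.47, 0.975 and 1.10 CPM in control EBs and 22.4, 36.6 and 9.18 CPM with RA, a rise of 4.27 ± 0.51 (edgeR FDR 2.9e-04). Slit2 had 6.53, 6.86 and 6.84 CPM in EBs and 43.0, 43.7 and 25.1 CPM with RA, a rise of 2.50 ± 0.22 (edgeR FDR 4.0e-05). In both genes control #7 had the lowest value with RA, and every RA library was above every EB library. Robo1 rose by 1.18 ± 0.19 (edgeR FDR 0.00120). Unc5b fell by 1.45 ± 0.17 (edgeR FDR 1.7e-04). The 3 smaller calls, Dcc (0.88), Slit1 (0.86) and Ntn1 (−0.60), each failed a limit without 1 or 2 of the clones. The changes for Ntn1 were −0.51 (FDR 0.177) without control #1 and −0.50 without #7, that for Slit1 was 0.85 (FDR 0.195) without #1, and those for Dcc were 1.00 (FDR 0.103) without #4 and 0.51 (FDR 0.169) without #7. Robo2 changed by 0.84 ± 0.47 (edgeR FDR 0.175), by 1.03 with the clone as a block (FDR 0.0208) and by 0.59 without #7 (FDR 0.00443). Slit3 was not called either, but passed the limits at −0.53 without #4 (FDR 0.0759) and −0.55 without #7 (FDR 0.00783). Unc5c had 26.3 to 27.2 CPM in the EBs + RA of the controls and 14.6 to 35.5 CPM in their EBs.

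**Figure D2:**
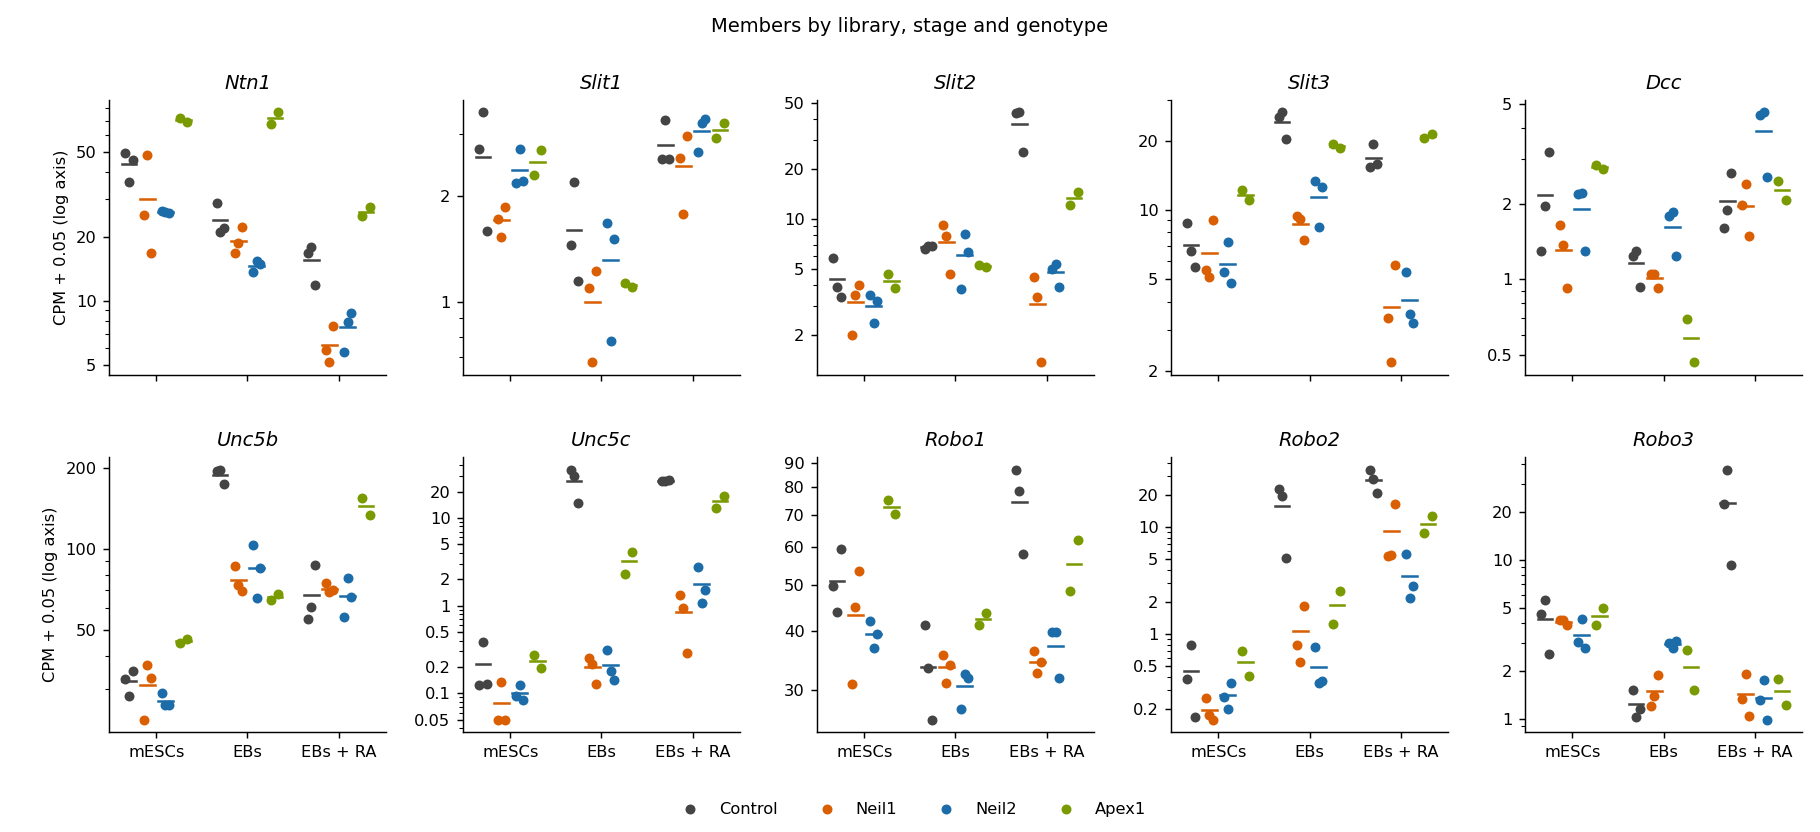
CPM plus 0.05 of the 10 members in all 33 libraries, on a log axis with its own range per gene, with 1 point per library, a bar at the mean of each group and a colour per genotype. Unc5c and Robo2 lie near the bottom in Neil1 and Neil2 EBs, Slit2 and Robo3 are highest in control EBs + RA, and Ntn1 in Apex1 EBs lies above the other EBs.

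Between genotypes, the members past the limits were counted at each stage. In mESCs, where Unc5c and Robo2 were below the count filter, 0 of the 8 members tested were called in Neil1 (1.03% of 15569 genes raised and 0.784% lowered, with 2387 genes at an unadjusted p under 0.05) and 1 in Neil2 (1.4% of 15615 raised and 0.429% lowered). DESeq2 also called 0 and 1. In Neil1 EBs, which served to choose the family, the ranges of mutants and controls did not overlap for 4 of the 10, with the mutants lower, and did for the other 6. By the edgeR limits 10.4% of all genes were raised and 13.1% lowered there, which is another measure than the overlap of ranges. The share of all genes without overlap was not computed, and nothing is read from the members' count. In Neil2 EBs, 5 of the 9 members other than Unc5c were called, 4 lowered and 1 raised, beside 7.69% of all genes lowered and 8.65% raised. Among the 4 lowered is Robo2, which passed the count filter through the control clones. The 3 control EB libraries of this comparison are those of the Neil1 comparison.

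The choice of the family named the Neil1 EBs and not the EBs + RA, but earlier results of every stage were known when it was made. In EBs + RA, 7 of 10 were lowered and 0 raised in Neil1, beside 19.9% of 16019 genes lowered and 21.2% raised. In Neil2, 7 of 10 were lowered and 1 raised, beside 16.6% of 16055 genes lowered and 18.3% raised. The median log2 fold change of the 10 was −1.49 in Neil1 and −1.56 in Neil2, against 0.00 over all genes in both. These counts and medians include Unc5c, the gene behind the choice. For the other 9 members the medians were −1.35 (Neil1) and −1.06 (Neil2). Each genotype then had 6 downward calls, beside 0 upward calls for Neil1 and 1 for Neil2. Every Neil1 call, and every Neil2 call but that of Dcc, was made again in all 6 fits that left out 1 library.

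**Figure D3:**
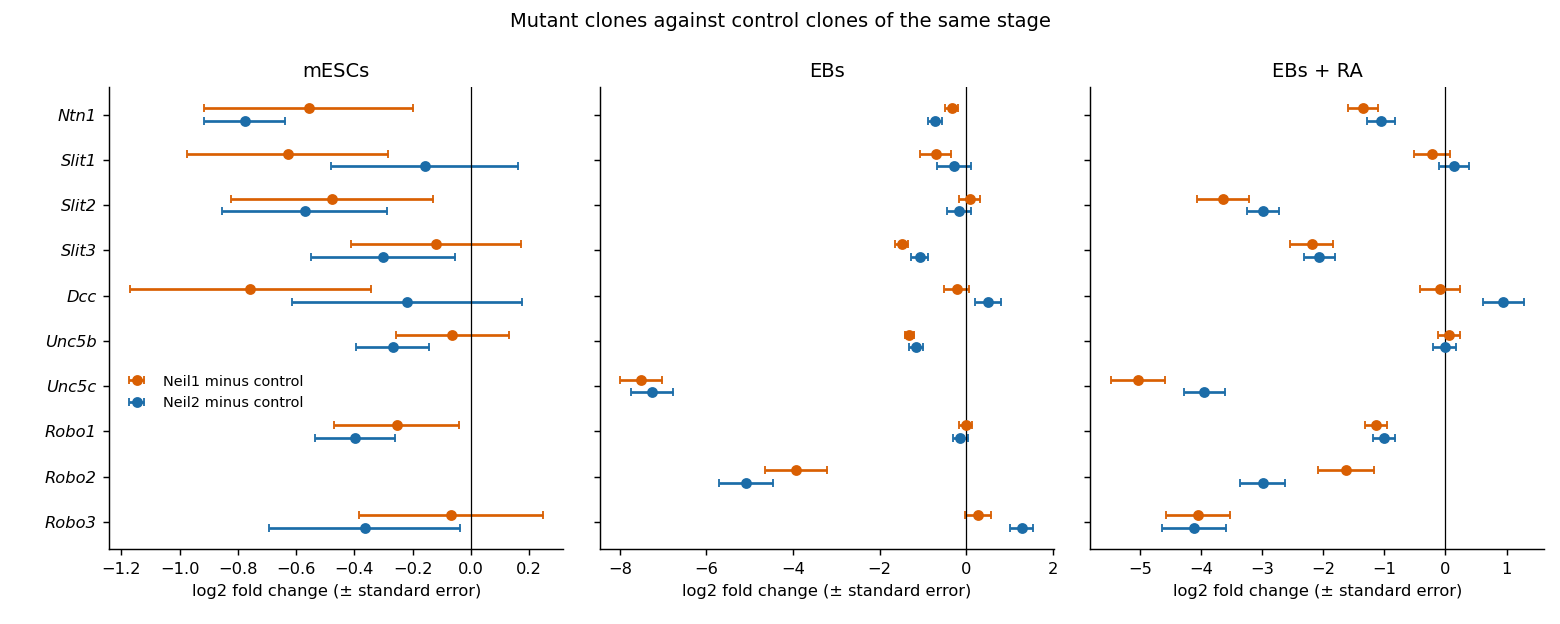
Log2 fold change of each member in Neil1 (orange) and Neil2 (blue) clones against control clones of the same stage, with bars for the standard error and a separate scale per stage. In EBs + RA 7 members lie at −1.01 or lower in both genotypes, whereas Slit1 and Unc5b sit near 0, and in mESCs no value is below −0.78. Neil1 EBs served to choose the family and are shown as values, with no test read.

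Among the ligands, Ntn1, the secreted netrin that attracts Dcc-bearing axons, was lower in the mutant EBs + RA. It had 16.7, 17.8 and 11.9 CPM in the controls, 5.81, 5.09 and 7.57 CPM in Neil1 #7, #9 and #11, and 5.70, 7.90 and 8.74 CPM in Neil2 #1, #11 and #14. Neither mutant overlapped the controls. The log2 fold changes were −1.35 ± 0.25 in Neil1 (edgeR FDR 0.00498) and −1.06 ± 0.23 in Neil2 (edgeR FDR 0.0109).

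Ntn1 was also the single member called in mESCs. Neil2 mESCs had 26.2, 26.1 and 25.7 CPM, below all controls at 49.5, 35.9 and 45.7. The log2 fold change was −0.78 ± 0.14 (edgeR FDR 0.0586). This call was kept in 1 of 6 fits with a library left out, the one without control #7. Without control #1 or #4, or Neil2 #1, #11 or #14, the FDRs were 0.156, 0.169, 0.111, 0.194 and 0.344. Neil1 mESCs, at 25.1, 48.2 and 16.7 CPM, overlapped the controls. In Neil2 EBs Ntn1 had 13.5, 15.2 and 14.8 CPM against 28.8, 21.1 and 21.9 in controls (−0.72 ± 0.17, edgeR FDR 0.0248), with an FDR of 0.128 without control #1. Neil1 EBs, at 16.6, 18.6 and 22.1 CPM, overlapped the controls.

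Slit2, a secreted repellent read by ROBO receptors, differed in the EBs + RA. Against 43.0, 43.7 and 25.1 CPM in controls, it had 4.42, 3.32 and 1.32 CPM in Neil1 and 4.96, 5.33 and 3.83 CPM in Neil2. All 6 mutant clones were far below all controls, by −3.64 ± 0.43 in Neil1 (edgeR FDR 8.0e-04) and −2.98 ± 0.27 in Neil2 (edgeR FDR 3.4e-04). In EBs its ranges overlapped, at 6.53 to 6.86 CPM in controls, 4.60 to 9.16 in Neil1 and 3.71 to 8.11 in Neil2, and the Neil2 log2 fold change was −0.16 ± 0.29 (edgeR FDR 0.777).

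Slit3 was lower in the mutants with and without RA. In EBs + RA it had 15.3, 19.3 and 15.8 CPM in controls, 3.36, 2.13 and 5.72 in Neil1 and 5.33, 3.49 and 3.17 in Neil2. The groups did not overlap, and the log2 fold changes were −2.19 ± 0.35 (edgeR FDR 0.00268) and −2.07 ± 0.25 (edgeR FDR 0.00103). In EBs it had 25.3, 26.5 and 20.3 CPM in controls, 9.41, 9.06 and 7.37 in Neil1 and 13.3, 8.41 and 12.5 in Neil2, again with no overlap (Neil2 −1.07 ± 0.20, edgeR FDR 0.0115). Slit1 was called in no mutant comparison. Its log2 fold changes in EBs + RA were −0.22 ± 0.30 in Neil1 and 0.14 ± 0.25 in Neil2 (edgeR FDR 0.580 and 0.700), at 2.50 to 3.24 CPM in controls.

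Of the netrin receptors, Unc5c, which mediates repulsion from netrin, was nearly silent in the mutant EBs. Control EBs had 35.5, 29.9 and 14.6 CPM, Neil1 EBs 0.200, 0.167 and 0.0760 CPM, which are 4, 4 and 2 counts, and Neil2 EBs 0.260, 0.128 and 0.0912 CPM, which are 8, 3 and 2 counts. The gene passed the count filter through the control clones alone, and the fitted log2 values of −7.51 and −7.26 rest on these few counts. They are a description of what led to the choice, and the Neil2 value uses the same control libraries.

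With RA, Unc5c was again lower in the mutants but not silent. It had 26.6, 26.3 and 27.2 CPM in controls, 1.27, 0.902 and 0.240 in Neil1 and 2.70, 1.02 and 1.46 in Neil2. The controls lay within 1 CPM of each other and all mutants at or below 2.70. The Neil1 clones had 41, 25 and 6 counts, and against them the gene passed the count filter through the control clones. The fitted log2 fold changes were −5.03 ± 0.45 in Neil1 and −3.95 ± 0.34 in Neil2. Among the members there, this was the largest fall in Neil1 and second to that of Robo3 in Neil2. Being values of the gene behind the choice, they are a description, and no FDR is read. These libraries come from the same clones as the EBs.

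Unc5b, the family member known from vessels as well as neurons, went another way. Its EB level was 194, 197 and 174 CPM in controls, 86.6, 73.4 and 69.6 in Neil1 and 104, 65.6 and 84.5 in Neil2. Both mutants lay below the controls, by −1.15 ± 0.17 in Neil2 (edgeR FDR 0.00370). With RA the 3 genotypes overlapped, at 54.6 to 87.2 CPM in controls, 69.0 to 74.3 in Neil1 and 55.8 to 78.0 in Neil2. The log2 fold changes were 0.06 ± 0.18 and −0.01 ± 0.19 (edgeR FDR 0.820 and 0.964).

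Dcc, the attractive netrin receptor, was low in all groups, at 11 to 144 counts. Its EBs + RA values were 1.55, 1.84 and 2.60 CPM in controls, 1.93, 2.34 and 1.44 in Neil1 and 4.44, 4.57 and 2.51 in Neil2. The Neil2 rise was 0.95 ± 0.33 (edgeR FDR 0.0592), with Neil2 #14 inside the control range. It was called in 2 of 6 fits with a library left out. Without control #1 or #4, or Neil2 #1 or #11, the FDRs were 0.199, 0.164, 0.114 and 0.164, and with the replicate block 0.114. Neil1 gave −0.09 ± 0.32 (edgeR FDR 0.854).

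Of the ROBO receptors, Robo1, which with Robo2 reads slits as repulsive, was lower in the mutant EBs + RA. It had 87.0, 78.6 and 57.9 CPM in controls, 36.3, 32.6 and 34.3 in Neil1 and 39.8, 39.7 and 31.9 in Neil2, with no overlap. The log2 fold changes were −1.14 ± 0.17 (edgeR FDR 0.00229) and −1.01 ± 0.18 (edgeR FDR 0.00487). In EBs its ranges overlapped, at 26.0 to 41.0 CPM in controls, 31.1 to 35.5 in Neil1 and 27.4 to 32.4 in Neil2 (Neil2 −0.13 ± 0.17, edgeR FDR 0.696).

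Robo2, a slit receptor of sensory and central axons and of the developing kidney, was lower in mutant EBs and EBs + RA. In EBs it had 22.9, 19.3 and 5.11 CPM in controls, 0.751, 0.501 and 1.79 in Neil1 and 0.716, 0.299 and 0.319 in Neil2. Control #7 was the lowest control and still above every mutant. The Neil2 clones had 22, 7 and 7 counts, so that the gene passed the count filter there through the control clones. The fitted log2 fold changes were −5.08 ± 0.63 in Neil2 and −3.93 in Neil1. Both rest on few mutant counts and are given without an FDR. With RA it had 34.4, 27.9 and 20.8 CPM in controls, 5.32, 5.41 and 16.6 in Neil1 and 5.52, 2.13 and 2.78 in Neil2. Neil1 #11 stood apart from the other Neil1 clones. The changes were −1.63 ± 0.45 in Neil1 (edgeR FDR 0.0256), or −2.40 without Neil1 #11, and −3.00 ± 0.38 in Neil2 (edgeR FDR 0.00114).

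Robo3, the receptor of commissural axons, had its highest level in control EBs + RA. Against 22.4, 36.6 and 9.18 CPM there, it had 1.27, 1.88 and 1.00 in Neil1 and 1.26, 1.71 and 0.940 in Neil2. The controls differed among themselves by several fold and all lay above all mutants. The log2 fold changes were −4.05 ± 0.53 in Neil1 (edgeR FDR 0.00121) and −4.12 ± 0.53 in Neil2 (edgeR FDR 0.00123). In EBs the order was the opposite for Neil2, at 2.93, 2.73 and 3.06 CPM against 1.47, 0.975 and 1.10 in controls, a rise of 1.28 ± 0.27 (edgeR FDR 0.0167). This was the single member raised in Neil2 EBs. Neil1 EBs had 1.15, 1.34 and 1.82 CPM and overlapped the controls.

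Whether RA acted differently in mutants was asked by an interaction term, the log2 change from EBs to EBs + RA in the mutant minus that in the control. Of the 9 members other than Unc5c, 6 were called for Neil1 at an FDR below 0.1, 2 positive and 4 negative, beside 17.3% of 16706 genes positive and 14.8% negative. For Neil2, 5 were called, 1 positive and 4 negative, beside 7.42% of 16757 genes positive and 7.98% negative. These tests contain the EB libraries behind the choice, and the Neil1 test contains the Neil1 EB comparison itself. Its FDRs are therefore not independent of the choice and describe these libraries only. Robo3 had the largest value in both, −4.31 ± 0.62 in Neil1 (edgeR FDR 5.6e-04) and −5.41 ± 0.60 in Neil2 (edgeR FDR 1.5e-04). By clone, with 0.5 CPM added, Robo3 moved by 2.59 to 4.65 on the log2 scale in controls, by −0.63 to 0.37 in Neil1 and by −1.30 to −0.55 in Neil2.

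Slit2 was negative in both mutants as well, with −3.71 ± 0.52 in Neil1 (edgeR FDR 4.7e-04) and −2.84 ± 0.40 in Neil2 (edgeR FDR 6.6e-04). By clone it rose by 1.80 to 2.63 in controls and moved by −1.49 to −0.97 in Neil1 and −0.65 to 0.38 in Neil2. Robo1 rose by 1.08 to 1.22 in control clones, and moved by 0.02 to 0.07 in Neil1 and 0.00 to 0.53 in Neil2. Its interaction was −1.11 ± 0.24 in Neil1 (edgeR FDR 0.00677) and −0.89 ± 0.26 in Neil2 (edgeR FDR 0.0453). Unc5b had an interaction of the opposite sign, 1.38 ± 0.21 in Neil1 and 1.12 ± 0.27 in Neil2 (edgeR FDR 0.0190). By clone it moved by −1.82 to −0.99 in controls, by −0.22 to 0.01 in Neil1 and by −0.89 to 0.25 in Neil2. With RA the genotypes overlapped, so these interactions mostly restate the lower Unc5b of the mutant EBs. The Neil1 value is therefore given without an FDR.

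The remaining interactions were less steady. Ntn1 in Neil1 was −1.002 ± 0.29 (edgeR FDR 0.0280), with an FDR of 0.158 without control #4. Robo2 was 2.33 ± 0.88 in Neil1 and 2.06 ± 0.76 in Neil2. Both rest on few mutant EB counts, 12 to 47 in Neil1 and 7 to 22 in Neil2, and are given without an FDR. The Neil1 value is among the 2 positive calls, and was called in 1 of 6 fits with a clone left out. The Neil2 value was not called, but was in 1 of 6 such fits and with the clone as a block. Slit3 in Neil2 was −1.01 ± 0.33 (edgeR FDR 0.0673), with 0.181, 0.231, 0.132 and 0.281 without control #1, #4 or #7 or Neil2 #14, while Slit3 in Neil1 was −0.68 ± 0.39 (edgeR FDR 0.216), with 0.0129 without Neil1 #11. The FDR of Unc5b in Neil2 was 0.118 and 0.131 without control #1 or #4. That of Robo1 in Neil2 was 0.199, 0.115 and 0.203 without control #4 or Neil2 #11 or #14. Without control #4, the calls over the 9 members were 4 in Neil1, of 6, and 2 in Neil2, of 5. Robo3 and Slit2 were called in all 6 such fits in both genotypes.

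**Figure D4:**
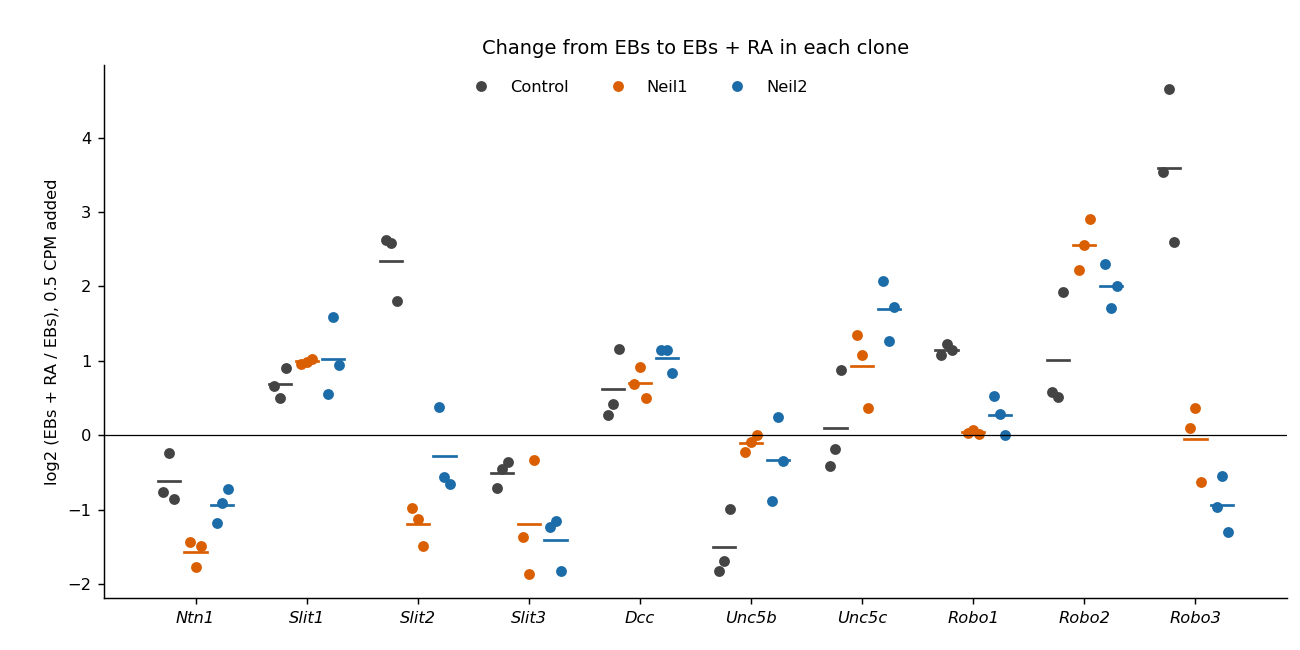
Log2 ratio of EBs + RA to EBs in each clone, with 0.5 CPM added to both, for the 10 members, with 1 point per clone and a bar at the mean of 3 clones. Control clones (grey) lie above all mutant clones for Slit2, Robo1 and Robo3 and below them for Unc5b.

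Neil1 and Neil2 clones were also compared directly. No member was called at any stage, and 0% of genes were called in either direction in mESCs, EBs or EBs + RA, with 915, 735 and 1608 genes at an unadjusted p under 0.05. DESeq2 called 0 members as well. Log2 differences of Neil2 minus Neil1 in EBs + RA ran from −1.41 to 1.07 over the 10 members. A fit of all 33 libraries together called Dcc there, at 1.02 (edgeR FDR 0.0968), as 1 of 546 genes. The 0% above thus belongs to the fits of 2 groups alone.

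In the Apex1 clone, with no test, a log2 fold change past 1 was counted. In mESCs 0 of the 9 members above the filter were past it (4.06% of all genes higher and 6.53% lower). In EBs, 4 members were lower and 1 higher, beside 9.76% and 4.72% of genes. Unc5c had 2.22 and 4.08 CPM and Robo2 1.21 and 2.46 CPM, all below the control EBs, and Unc5b had 64.2 and 67.8 CPM (log2 fold changes of −3.05, −3.07 and −1.49). Ntn1 was the higher one, at 67.7 and 76.5 CPM (1.61), above every other EB library. Dcc was at 0.645 and 0.416 CPM (−1.05).

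In Apex1 EBs + RA, 3 members were lower and 1 higher, beside 7.47% and 10.1% of genes. Robo3, at 1.73 and 1.16 CPM (−3.99), was within the range of the Neil1 and Neil2 clones. Slit2, at 12.1 and 14.5 CPM (−1.46), and Unc5c, at 13.0 and 18.0 CPM (−0.74), lay between those clones and the controls. Unc5b, at 154 and 134 CPM (1.10), was above every other EBs + RA library. Robo2 was at 8.72 and 12.6 CPM (−1.34).

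Other genes of the pathway came from lists set out by function, and their calls are read beside the share of all genes called in EBs + RA, which was 19.9% lowered and 21.2% raised in Neil1 and 16.6% lowered and 18.3% raised in Neil2. The genes named from each list were picked because both mutants called them. Of 17 other netrin and slit ligands and receptors, 14 passed the filter in EBs + RA. Neil1 lowered 8 and raised 1, and Neil2 lowered 9 and raised 1, with medians of −0.92 and −1.09. Unc5a, a further repulsive netrin receptor, fell by 5.60 in Neil1 and by 5.17 in Neil2 on the log2 scale (edgeR FDR 1.1e-04 and 2.4e-04). Draxin, a secreted repellent that binds Dcc, changed by −4.23 and −3.50 (edgeR FDR 1.3e-04 and 2.4e-04), and Dscaml1, a cell adhesion molecule related to Dscam, rose by 1.62 and 1.34 (edgeR FDR 0.00605 and 0.00652). Of 23 intracellular effectors, 22 were tested. Neil1 lowered 9 and Neil2 lowered 8, with medians of −0.19 and −0.27. The log2 fold changes in Neil1 and Neil2 were −1.62 and −2.27 for Srgap3, a GTPase-activating protein that binds ROBO receptors, and −1.19 and −1.30 for Evl, an actin regulator of the Ena/VASP family.

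Other guidance families were counted in the same way. Of 31 semaphorins and semaphorin receptors, 29 were tested in EBs + RA. Neil1 lowered 14 and raised 4, and Neil2 lowered 16 and raised 3. In Neil1 and Neil2, the secreted Sema3a changed by −4.98 and −4.03 on the log2 scale and Sema3d by −3.49 and −2.41, while Sema4b rose by 1.19 and 0.64 and Sema3e by 1.11 and 0.99. Of 22 ephrins and Eph receptors, 20 were tested, of which Neil1 lowered 11 and raised 5 and Neil2 lowered 11 and raised 2. The receptors Epha3 (−6.53 and −5.68) and Epha5 (−4.42 and −3.05) were the lowest, and Epha8 (1.35 and 0.81) and Epha2 (1.04 and 0.79) the highest. The weakest FDR among these 8 genes was 0.0781 (edgeR), for Epha8 in Neil2.

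Marker lists of several cell types were summed in the same libraries, and their levels differed between genotypes in both directions. In EBs + RA the summed level of 9 neuron markers, among them Tubb3, Dcx and Elavl3, was 206 to 293 CPM in controls, 35.3 to 39.6 in Neil1 and 31.2 to 48.6 in Neil2, and of the 8 tested both mutants lowered 8. Snap25 had at most 2 counts in Neil2. The 4 neural progenitor markers found summed to 209 to 370 CPM in controls, 33.1 to 78.0 in Neil1 and 54.0 to 100 in Neil2, and Neil1 lowered 4 and Neil2 3. In EBs without RA these 2 lists stood the other way or overlapped. The neuron sums were 122 to 127 CPM in controls, 164 to 202 in Neil1 and 118 to 219 in Neil2, with 4 markers raised in Neil1, 2 in Neil2 and 0 lowered in either. The neural progenitor sums were 334 to 342, 485 to 599 and 445 to 605 CPM, with 2 raised and 1 lowered in each. Both lists were also high in undifferentiated control mESCs, at 441 to 470 CPM for neurons and 463 to 570 CPM for neural progenitors. Their sums are therefore not particular to neural cells. Of 7 mesenchyme markers, Neil1 lowered 5 and Neil2 6, with sums of 247 to 355, 70.4 to 178 and 38.0 to 96.4 CPM. In EBs the mesenchyme sums were 164 to 281 CPM in controls, 23.7 to 38.0 in Neil1, 14.9 to 42.8 in Neil2 and 32.5 to 44.8 in Apex1. The 5 pluripotency markers summed to 51.1 to 79.1 CPM in control EBs + RA, 120 to 255 in Neil1, 121 to 442 in Neil2 and 456 to 580 in Apex1, with 4 raised in Neil1 and 5 in Neil2. In EBs they summed to 1570 to 1711 CPM in controls, 2408 to 2751 in Neil1, 1805 to 2907 in Neil2 and 2839 to 2903 in Apex1, with 4 raised in Neil1 and 3 in Neil2. The 5 floor plate markers summed to 20.8 to 25.1 CPM in control EBs + RA, 35.0 to 85.2 in Neil1 and 13.3 to 34.6 in Neil2, most of it Foxa2, which endoderm also expresses. Endothelial sums overlapped in EBs + RA, at 39.6 to 43.8, 34.1 to 168 and 29.3 to 54.8 CPM, and endoderm sums were 107 to 241, 246 to 454 and 102 to 244 CPM. The part of these markers in the members' values was not tested.

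Over the means of the 12 groups, the genes most like Unc5c among 15628 were Tmem119 (Pearson r of log2 CPM 0.99), Twist2 (0.98), Pcdh18 (0.98), Bmp5 (0.98) and Tgfb2 (0.97). Among the members, Robo2 was most like it (0.92), and Dcc and Slit1 were most like each other (0.85). These values describe 12 groups that share clones and stages.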

How the data were processed

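RNA-seq of 33 libraries was analysed. Per the labels and the study's methods, the authors aligned reads with TopHat2 2.0.9 to NCBIM37 and deposited raw counts per gene from HTSeq 0.5.4. Counts were fitted with edgeR 4.0.16 (R 4.3.3, limma 3.58.1; filterByExpr, TMM, robust quasi-likelihood test, Benjamini-Hochberg over all genes tested), using the 2 groups compared, or 4 groups for an interaction. Calls needed an FDR below 0.1 and, except for interactions, an absolute log2 fold change above 0.5, as in the study. Apex1 duplicates were summed. RPKM used exon lengths of GENCODE vM1. Gene lists left out Ntng1, Flrt3, Abl1, Efna5 and Sox1, which had no single match. Alternatives were DESeq2 1.42.0, RLE size factors, no filter, all 33 libraries, an FDR below 0.05, a replicate block and each replicate left out. Equal numbers are the same clone across stages (for control EBs + RA and EBs, deviations correlated at 0.18 to 0.27), and share only a number across genotypes. Members and lists were chosen with earlier results of these data known. All members and, per list, the 2 largest rises and falls in Neil1 EBs + RA called in both mutants are named, except for a result not reported here. Reads aligned to several places (11.4% to 19.9%) were set aside by the counting. The fits were tested on simulated data. Figures used matplotlib 3.10.9 under Python 3.11.15.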

Additional observations from a re-analysis of the deposited data

Results flagged for a closer look

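The response to RA, the log2 change from EBs to EBs + RA, differed from that of the control clones by the interaction test for several members. The Neil1 test contains the Neil1 EB comparison that served to choose the family. In Neil1 EBs Robo2 rested on 12 to 47 counts. The differences in Neil1 were −4.31 for Robo3, −3.71 for Slit2, −1.11 for Robo1, −1.002 for Ntn1, 1.38 for Unc5b and 2.33 for Robo2. In Neil2 they were −5.41 for Robo3, −2.84 for Slit2, −1.01 for Slit3, −0.89 for Robo1 and 1.12 for Unc5b. Those of Ntn1, Robo2, Slit3 and, in Neil2, of Robo1 and Unc5b were lost when single clones were left out.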

How the results depend on the processing

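No called member changed sign under any alternative. Of 936 values of single members under an alternative, 853 kept both their direction and their side of the limits. Another 51 fell short of a limit and 14 reached it. For mutants against controls in mESCs, and for Neil2 minus Neil1, the 936 hold only members with a call gained or lost. They include the Neil1 EBs and Unc5c, whose calls are not read, and lend these no support. The FDR below 0.05 reused the main fit, so its direction could not change. Members that were not called did cross 0. With the replicate block, Robo1 was 0.014 in Neil1 EBs and Unc5b 0.0016 in Neil2 EBs + RA. With each replicate left out in turn, log2 fold changes ran from −0.16 to 0.15 for Robo1 and −0.14 to 0.33 for Slit2 in Neil1 EBs, from −0.28 to 0.030 for Robo1, −0.52 to 0.019 for Slit1 and −0.44 to 0.081 for Slit2 in Neil2 EBs, from −0.077 to 0.27 for Unc5b and −0.25 to 0.14 for Dcc in Neil1 EBs + RA, from −0.14 to 0.20 for Unc5b in Neil2 EBs + RA, from −0.27 to 0.29 for Unc5c between control EBs and EBs + RA, and from −0.066 to 0.50 for the RA response of Dcc in Neil1.

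The number of members called moved in a few comparisons. In Neil2 mESCs it was 1, and 0 with all 33 libraries in 1 fit or at an FDR below 0.05, with 0 to 1 when single replicates were left out; in Neil1 mESCs the latter gave 0 to 1. For Neil2 minus Neil1 in EBs + RA it was 1 with all 33 libraries in 1 fit, where 546 genes were called. The RA response gave 4 to 7 members in Neil1 and 3 to 6 in Neil2 when single replicates were left out. These counts include Unc5c, whose calls are not read there, and over the other 9 members they were 4 to 6 and 2 to 5. Fewer libraries also mean a weaker test, and the cause was not tested further. With the replicate block 7 members were called in Neil2 EBs + RA, 8 between control EBs and mESCs with Unc5c and 7 without it, and 8 between control EBs + RA and EBs, none of them Unc5c, where equal numbers are the same clone. Between genotypes the numbers link nothing known.

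At this depth genes under 1 CPM, such as Unc5c and Robo2 in mESCs, rest on few counts.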
